A study of Mus musculus with 6 samples.

Results

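Transcripts of the proteasome were measured in the left ventricle of obese mice treated with placebo or with an agent that the labels name only as Lira. The genes were taken from the array's name table by symbol, as every Psma, Psmb, Psmc, Psmd or Psme gene with a number, other than Psmb8, that had at least 1 probe set of its own. There were 41 such genes among 18193 genes with a probe set of their own. Of these, 18 encode subunits of the core (Psma, Psmb) and 23 encode subunits or partners of the caps (Psmc, Psmd, Psme). The only probe set of Psme2 also names Psme2b, so Psme2 was not analysed here.

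The mice were C57BL/6 males of 6 months on a high fat diet for 16 weeks, 3 with placebo and 3 with Lira, with 1 array for each mouse. No transgene or mutant allele is named for either group, both shared the diet, and a lean group was not analysed here. The design text counts 10 mice, of which 6 arrays were analysed here, and neither a dose nor a duration of Lira was stated in the sources used here. One protocol text in the labels mentions blood, whereas the sample descriptions name the left ventricle.

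The proteasome is the protease that degrades proteins tagged with ubiquitin. Its core is a barrel of stacked rings, in which outer rings of alpha subunits gate the entrance and inner rings of beta subunits hold the proteolytic sites. Caps bind the ends of the barrel: the regulatory particle recognises ubiquitin, removes it and unfolds the substrate with a ring of ATPases, while other activators open the gate without ubiquitin. In heart muscle the proteasome turns over sarcomere and signalling proteins. Cells can raise subunit transcripts together through the transcription factor Nfe2l1, and interferon exchanges some catalytic subunits for inducible ones.

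Signals are linear fluorescence units whose scale differs between probe sets, so differences were taken between arrays within a probe set. Signal level was also used across probe sets, to choose the brightest for each gene, to leave out dim genes and to mark bright ones. Sums over a marker list are dominated by its brightest probe sets. The median signal over all probe sets lay between 28.6 and 39.6 on the 6 arrays. Ratios of the 3' to the 5' control probe sets, a sign of RNA integrity, were 0.78 to 0.83 for Gapdh and 1.55 to 1.74 for Actb, with overlapping groups. All 6 cardiomyocyte markers, among them Myh6 and Tnnt2, were bright, with summed signals of 148173 to 158388 with placebo and 150326 to 189892 with Lira. Red cell markers summed to 14.7 to 68.5 on the placebo arrays and 15.2 to 32.5 on the Lira arrays. Of the atrial genes, Sln and Myl7 had mean signals below the limit for testing, and Myl4 measured 92.9 ± 15.3 with placebo and 114 ± 5.69 with Lira (SD, n = 3 per group), with groups that did not overlap. Markers of the main heart cell types were mostly above 0: cardiomyocyte 6 of 6 (median 0.13), endothelial 5 of 5 (0.12), fibroblast 4 of 5 (0.18) and smooth muscle 2 of 3 (0.16). Among them Acta2 (0.75), Dcn (0.23) and Ryr2 (0.19) had an unadjusted p under 0.05 in limma and groups apart, and the adjusted p was 0.59, 0.71 and 0.75. They were 1 of 3 smooth muscle, 1 of 5 fibroblast and 1 of 6 cardiomyocyte markers tested, with 0 of 5 endothelial. Over all genes tested 51.9% were above 0, 6.02% had such a p and 11.4% had groups apart. Acta2 measured 1122, 1074 and 1391 with placebo and 3377, 1579 and 1518 with Lira, with Lira 1 far above the other Lira arrays. Myh6, Tnnt2, Tnni3, Actc1 and Myl2, but not Ryr2, were highest on Lira 2 and within or below the placebo range on Lira 3. Precision is limited by having 3 arrays in each group. In whole ventricle a change in cell number and a change in RNA per cell cannot be told apart.

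No difference between Lira and placebo passed the test in any of the 39 proteasome genes that were bright enough to test. In limma with Benjamini-Hochberg adjustment over 12735 genes, 0 of 39 passed an adjusted p of 0.05, where 0.055% of all genes did. At an unadjusted p under 0.05 in limma, 2 of 39 were counted (5.1%), where the share over all genes was 6.02%. One of these was higher with Lira (Psmd7) and the other lower (Psmd6), against 2.91% and 3.12% of all genes. The median log2 difference of the members, Lira minus placebo, was 0.00, beside 0.01 for all genes tested, and 19 of 39 were above 0 (48.7%), where 51.9% of all genes were. Differences ranged from -0.27 to 0.42 on the log2(signal + 16) scale. No 95% interval went below -0.52 or above 0.75, so none reached a 2-fold change in either direction. The proteasome genes also varied little between mice. The highest array exceeded the lowest by a median of 1.25-fold over the members, from 1.07-fold for Psmd12 to 1.95-fold for Psmd7, against 1.51-fold over all genes tested. Among genes with a mean signal of 1000 or more, this spread was 1.20-fold for 30 members and 1.25-fold for all 1438 such genes.

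**Figure D1:**
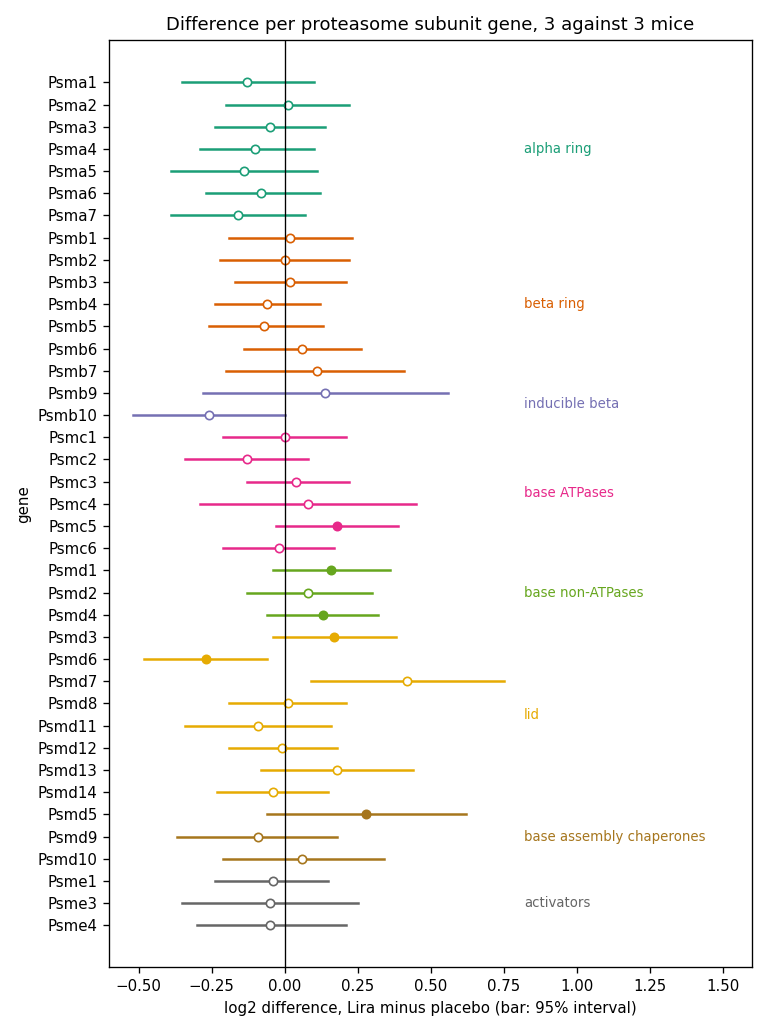
Log2 difference (Lira minus placebo, x axis) of each tested proteasome gene (y axis, coloured by role), with bars for the 95% interval of the limma fit. Filled points mark the 6 genes whose 3 Lira arrays all lay on one side of the 3 placebo arrays; the intervals of all genes but Psmd6 and Psmd7 reach or cross 0 at the precision drawn.

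No alpha ring gene passed the test. Of 7 tested, 6 had a value below 0 and Psma2 measured 0.01, with a median of -0.10, and 0 had an unadjusted p under 0.05. Psma7 had the lowest of these differences. It measured 1430, 1346 and 1767 on placebo arrays 1 to 3 and 1302, 1321 and 1415 on Lira arrays 1 to 3, a log2 difference of -0.16 ± 0.11 (SE; adjusted p = 0.87). Its groups overlapped, and the placebo 3 array was the highest. Psma5 measured 1744, 1683 and 2048 with placebo and 1815, 1385 and 1786 with Lira, a difference of -0.14 ± 0.12 (adjusted p = 0.90). Psma1 measured 2074, 2448 and 2786 with placebo and 2322, 2184 and 2143 with Lira (-0.13 ± 0.11, adjusted p = 0.90). Both again had overlapping groups and their highest signal on placebo 3. Psma2, Psma3, Psma4 and Psma6 lay between -0.10 and 0.01, and the 95% intervals of the 7 genes stayed between -0.39 and 0.22. Without placebo 3 the ring had 3 genes above 0 and 4 below, with a median of -0.02. Psma8, the alpha subunit of the testis, gave 10.7 to 30.3 on the 6 arrays, and its mean of 21.5 was below the limit of 23.7 for testing.

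The beta ring holds the proteolytic subunits. Psmb5 carries the chymotrypsin-like site and measured 2041, 1930 and 2152 with placebo and 1822, 1941 and 2092 with Lira, which is a difference of -0.07 ± 0.09 on the log2 scale (adjusted p = 0.95). Psmb6, with the caspase-like site, measured 1938, 2079 and 2284 with placebo and 2092, 2139 and 2329 with Lira (0.06 ± 0.09, adjusted p = 0.96). Psmb7, with the trypsin-like site, measured 1403, 1454 and 1345 with placebo and 1513, 1178 and 1932 with Lira (0.11 ± 0.14, adjusted p = 0.95). All 3 had overlapping groups, and Psmb7 had both its lowest and its highest signal among the Lira mice, on arrays 2 and 3. Without Lira 3 its difference was -0.07. The structural subunits Psmb1, Psmb2, Psmb3 and Psmb4 lay between -0.06 and 0.02. Over the 7 beta ring genes 5 were above 0 and 2 below, with a median of 0.02, and the 95% intervals stayed between -0.26 and 0.41. The tally turned to 2 above and 5 below without placebo 1, placebo 2 or Lira 3, with medians of -0.02, -0.01 and -0.04.

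Psmb5 and several cap genes carry, before their start sites, the letters that Nfe2l1 and its relative Nfe2l2 are known to bind, the core of the antioxidant response element (TGACNNNGC, searched on both strands). The 4 stretches that lie wholly upstream are shown so that these letters can be read in place, with the match in capitals, 5' to 3' on the gene's strand, from RefSeq promoter windows of GRCm38.p6.
Psmb5 (chr14:54618024-54618052, minus strand): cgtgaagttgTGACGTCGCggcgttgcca
Psmd9 (chr5:123228149-123228177, plus strand): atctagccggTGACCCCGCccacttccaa
Psmc6 (chr14:45329587-45329615, plus strand): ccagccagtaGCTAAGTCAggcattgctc
Psmd12 (chr11:107479278-107479299, plus strand): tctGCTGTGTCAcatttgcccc
In Psmc6 and Psmd12 the match is on the opposite strand and reads in reverse complement here. Windows of 300 bases, 250 before and 50 after the start, were found for 34 of the 41 genes. A match was present in 6 of these 34 genes (17.6%), the other two being Psmb6 and Psme4 next to the start site, and in 14.0% of 27025 genes with such a window. The 4 genes shown had log2 differences of -0.07, -0.09, -0.02 and -0.01 in the order printed. The interferon-stimulated letters TTTCNNTTT were in 5 of 34 genes (14.7%, all genes 12.1%), and the gamma-activated letters TTCNNNGAA in 1 of 34, Psmd2 (2.9%, all genes 9.6%); these 3 motifs were searched separately on both strands, and any overlap between their matches was not removed. A match describes these letters and not a bound site.

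The inducible catalytic subunits replace their constitutive partners in immune cells and after interferon. Psmb9, which replaces Psmb6, measured 104, 162 and 126 with placebo and 143, 187 and 111 with Lira, which is a difference of 0.14 ± 0.20 on the log2 scale (adjusted p = 0.95). Psmb10, which replaces Psmb7, measured 568, 575 and 647 with placebo and 490, 578 and 428 with Lira, a difference of -0.26 ± 0.12 (adjusted p = 0.82; unadjusted p in limma 0.053). The groups of both genes overlapped, and the array that was highest for Psmb9, Lira 2, was also the highest Lira array for Psmb10. Without Lira 2 the difference of Psmb9 was -0.03. That of Psmb10 was -0.37 without Lira 2 (unadjusted p in limma 0.012, adjusted p = 0.62) and -0.16 without Lira 3. Psmb11, the beta subunit of the thymus, gave 3.10 to 15.4 and was not tested.

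Other interferon-gamma-induced genes of the class I pathway, which uses proteasome products, were all above 0: 8 of 8 tested, with a median of 0.22. Over all genes tested 51.9% were above 0, with a median of 0.01. In limma 0 of the 8 passed the adjusted threshold, and 2, Tap2 and H2-D1, had an unadjusted p under 0.05 (25.0%, all genes 6.02%). Of the 8, 3 had groups that did not overlap (37.5%, all genes 11.4%). They were the peptide transporter Tap2, at 139 ± 21.5 with placebo and 188 ± 10.8 with Lira (SD, n = 3 per group), the class I gene H2-D1, at 2398 ± 260 and 2853 ± 249, and the transcription factor Irf1. Irf1 measured 286, 293 and 350 with placebo and 386, 356 and 366 with Lira. Without Lira 2 the list had 6 genes above 0 and 2 below, without placebo 1 it had 5 and 3, and with array weights 6 and 2. Averaged over all probe sets of each gene, 7 were tested, with 6 above 0 and 1 below and a median of 0.17. All 6 macrophage markers were also above 0, as were most markers of the other heart cell types given above, with a median of 0.16 and summed signals of 2051 to 2212 with placebo and 2197 to 2542 with Lira. Of these 6 macrophage markers, Adgre1 and C1qa had groups apart, where 11.4% of all genes did, and 0 had an unadjusted p under 0.05 in limma. All 4 T and NK cell markers were below the limit for testing, summing to 34.9 to 93.3 with placebo and 15.1 to 36.6 with Lira. The part of these cells in the values of Psmb9 and Psmb10 was not tested.

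**Figure D2:**
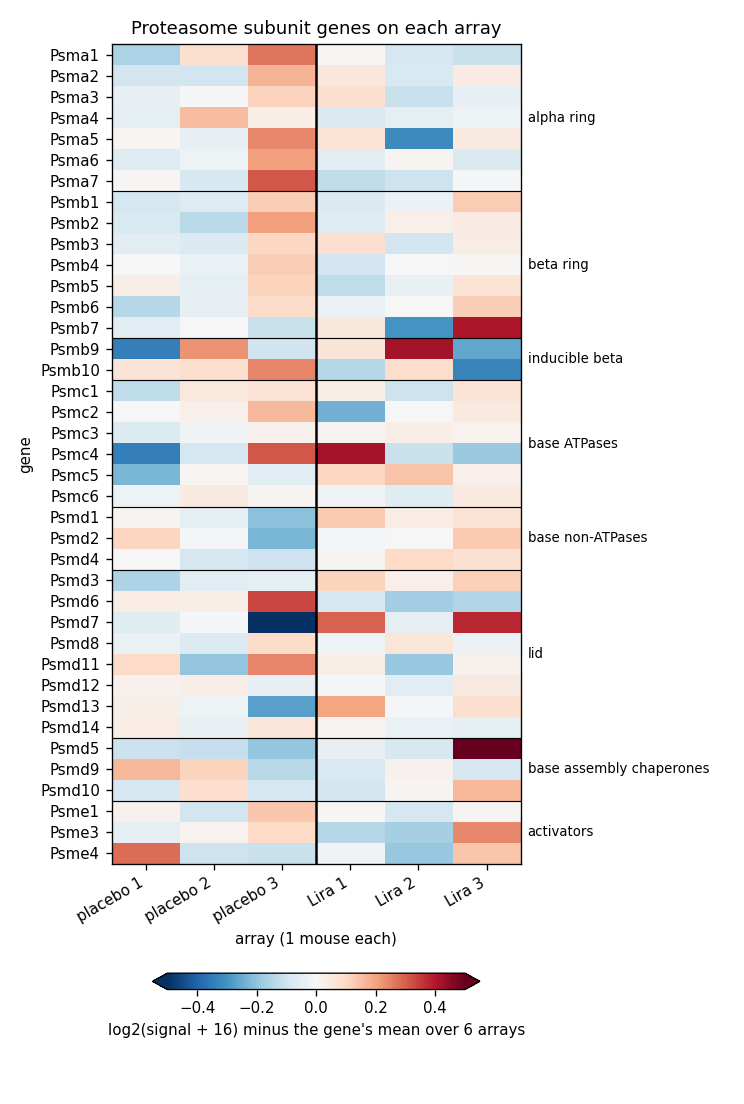
Each cell gives log2(signal + 16) of a gene (rows, grouped by role) on an array (columns, 1 mouse each) minus that gene's mean over the 6 arrays, and the vertical line separates placebo from Lira. Most alpha and beta ring genes are highest on placebo 3, while Psmd7, Psmd13, Psmd2 and Psmd1 are lowest there.

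In the regulatory particle, the base pulls substrates into the core. Of its 6 ATPases, 3 were above 0 and 3 below, with a median of 0.02, and 0 had an unadjusted p under 0.05. Psmc5 had the highest difference. It measured 1010, 1194 and 1142 with placebo and 1273, 1311 and 1206 with Lira, which is a difference of 0.18 ± 0.10 on the log2 scale (adjusted p = 0.84), and its groups did not overlap. Psmc2 had the lowest, with 2617, 2663 and 2930 with placebo and 2209, 2621 and 2707 with Lira (-0.13 ± 0.10, adjusted p = 0.89) and overlapping groups. Psmc4 was the most variable ATPase, at 909, 1088 and 1440 with placebo and 1548, 1071 and 1015 with Lira, a difference of 0.08 ± 0.17. Psmc1, Psmc3 and Psmc6 lay between -0.02 and 0.04.

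The 3 members in the base that are not ATPases had values above 0, although none passed a test. Psmd1, a large scaffold subunit, measured 1333, 1278 and 1144 with placebo and 1448, 1357 and 1390 with Lira (0.16 ± 0.09, adjusted p = 0.87). The ubiquitin receptor Psmd4 measured 1280, 1208 and 1190 with placebo and 1295, 1372 and 1352 with Lira (0.13 ± 0.09, adjusted p = 0.87). In both genes the groups did not overlap, although the lowest Lira array lay close to the highest placebo array. The related scaffold Psmd2, which docks ubiquitin and shuttle proteins, measured 1844, 1702 and 1456 with placebo and 1703, 1708 and 1875 with Lira (0.08 ± 0.10, adjusted p = 0.95), and its groups overlapped. Without placebo 3 the difference of Psmd2 was -0.01. Averaged over both of its probe sets it was -0.28, with a second, dim set of 1.66 to 21.6 then given equal weight.

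The lid removes ubiquitin from the substrate and held both genes with an unadjusted p under 0.05. Of the 8 members in the lid, 4 were above 0 and 4 below, with a median of 0.00. Psmd14, the deubiquitinase, measured 1430, 1354 and 1453 with placebo and 1405, 1361 and 1349 with Lira (-0.04 ± 0.09, adjusted p = 0.97). Psmd7, which pairs with Psmd14 in the lid, measured 678, 705 and 473 with placebo and 872, 685 and 923 with Lira, a log2 difference of 0.42 ± 0.15 (Entrez gene 17463; unadjusted p in limma 0.016, adjusted p = 0.70). Its groups overlapped at Lira 2, and placebo 3 was the lowest array. Psmd6, a structural lid subunit, measured 2146, 2139 and 2640 with placebo and 1972, 1850 and 1888 with Lira, a difference of -0.27 ± 0.10 (Entrez gene 66413; unadjusted p in limma 0.017, adjusted p = 0.71). Its groups did not overlap, and placebo 3 was the highest array. Without placebo 3 the differences were 0.24 for Psmd7 and -0.17 for Psmd6, with 0 members at an unadjusted p under 0.05 in limma.

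Psmd3, a further structural lid subunit, measured 527, 565 and 570 with placebo and 636, 598 and 640 with Lira (0.17 ± 0.10, adjusted p = 0.87), and its groups did not overlap. Psmd13 measured 381, 366 and 306 with placebo and 430, 370 and 395 with Lira (0.18 ± 0.12, adjusted p = 0.87), with overlapping groups. Psmd8, Psmd11 and Psmd12 lay between -0.09 and 0.01.

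Chaperones that assemble the base share the Psmd name. Psmd5 measured 232, 231 and 218 with placebo and 244, 237 and 371 with Lira, which is a difference of 0.28 ± 0.16 on the log2 scale (adjusted p = 0.87). Its groups did not overlap, but Lira 3 stood far above the other Lira arrays, and without it the difference was 0.08. Psmd9 and Psmd10 had differences of -0.09 and 0.06, each with overlapping groups.

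The activator Psme1, an interferon-induced subunit of the ring that opens the gate without ATP, measured 2409, 2223 and 2602 with placebo and 2385, 2231 and 2391 with Lira (-0.04 ± 0.09, adjusted p = 0.97). Its nuclear relative Psme3 and the large activator Psme4 differed by -0.05 each, with 95% intervals of -0.35 to 0.25 and -0.30 to 0.21. All 3 groups of values overlapped.

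Core and cap genes were then set side by side. Groups did not overlap in 6 of 39 members (15.4%), where 11.4% of all genes tested had groups apart. All 6 were cap genes, 5 with Lira higher (Psmc5, Psmd1, Psmd3, Psmd4 and Psmd5; 5.98% of all genes) and 1 with Lira lower (Psmd6; 5.41% of all genes), and 0 of 16 core genes were apart. The 6 were 26.1% of the cap genes. This contrast depends on the probe set used: on second sets, given below, Psmd4 and Psmd6 overlapped and the core gene Psmb4 was apart. After median centring of the arrays 3 members were apart (7.7%, all genes 9.47%). With quantile normalisation 5 were (12.8%, all genes 12.1%), and with the mean of probe sets 8 of 40 were (20%, all genes 10.4%). With single arrays left out the number was 6 to 12 (15.4% to 30.8%), where 20.0% to 22.7% of all genes were apart, with 1 to 3 core genes apart in each such set other than that without Lira 1, which had 0. The median log2 difference was -0.05 over the 16 tested core genes and 0.01 over the 23 cap genes. As a mean over genes, each centred on its own mean, the core stood at -0.06, -0.01 and 0.13 on the placebo arrays and -0.02, -0.04 and 0.00 on the Lira arrays. The caps stood at -0.02 on each placebo array and at 0.03, -0.04 and 0.08 on the Lira arrays. Core minus cap was therefore -0.04, 0.02 and 0.16 with placebo and -0.05, 0.00 and -0.07 with Lira. The groups overlapped. The shift between their means was -0.08, beside an SD of 0.10 over the placebo arrays and 0.03 over the Lira arrays. Without placebo 3 it was -0.03.

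**Figure D3:**
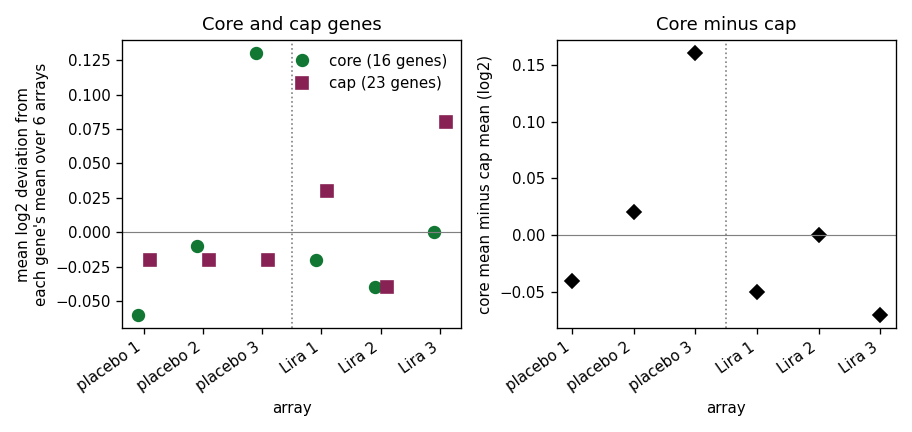
Left, the mean deviation (log2) of 16 core genes (circles) and 23 cap genes (squares) on each array from each gene's mean over the 6 arrays; right, core minus cap on each array. The core mean of 0.13 on placebo 3 stands above all other arrays, and the caps on the same array are at -0.02.

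The placebo 3 array stood highest for most core genes. Of 16 core genes, 11 had their highest signal on that array (68.8%), 6 of 7 in the alpha ring and 4 of 7 in the beta ring, and 0 had their lowest there. Over all genes tested, 19.4% were highest on placebo 3, and among the 1438 genes with a mean signal of 1000 or more 30.5% were. The caps were divided, with 7 of 23 genes highest on placebo 3 (30.4%) and 7 lowest, and 8 highest on Lira 3 (34.8%). In the beta ring 3 of 7 were highest on Lira 3, as were 27.7% of the genes with a mean signal of 1000 or more. Second probe sets of core genes, which were not used in the fit, were also high on placebo 3. Of 5 with a mean signal of at least 200, for Psma5, Psma6, Psma7, Psmb3 and Psmb4, all 5 were highest on placebo 3. The Gapdh and Actb 3' to 5' ratios of that array, 0.79 and 1.67, lay within the range of the others. Which property of this mouse or array moves with the core was not tested.

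Probe sets of the same gene show how firm the small differences are. Across 13 members, 16 second probe sets had a mean signal of at least 200, and 7 of them had the sign of the probe set used while 9 had the other. In the core 5 of 5 had the same sign, and in the caps 2 of 11. The second set of Psmd6 measured 1769, 1767 and 1906 with placebo and 1847, 1621 and 1858 with Lira, a log2 difference of -0.03 with overlapping groups, so the separation of Psmd6 was not seen on it. The second set of Psmd4 measured 956, 896 and 850 with placebo and 610, 933 and 919 with Lira, the other sign at -0.16. For Psmc2 the second set had the other sign too, at 1843, 1809 and 1705 with placebo and 1920, 1948 and 1844 with Lira, a difference of 0.09. In Psmb4 the second set stood apart where the set used did not, at 2738, 2802 and 3143 with placebo and 2602, 2244 and 2015 with Lira, a difference of -0.34. The other probe sets of Psmd7 were dim, and averaged over all of them the difference of Psmd7 was -0.04. In 4 members, Psma6, Psmc2, Psmd11 and Psme4, the name of the probe set used ends in s_at or x_at, which marks probes that can match further transcripts.

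**Figure D4:**
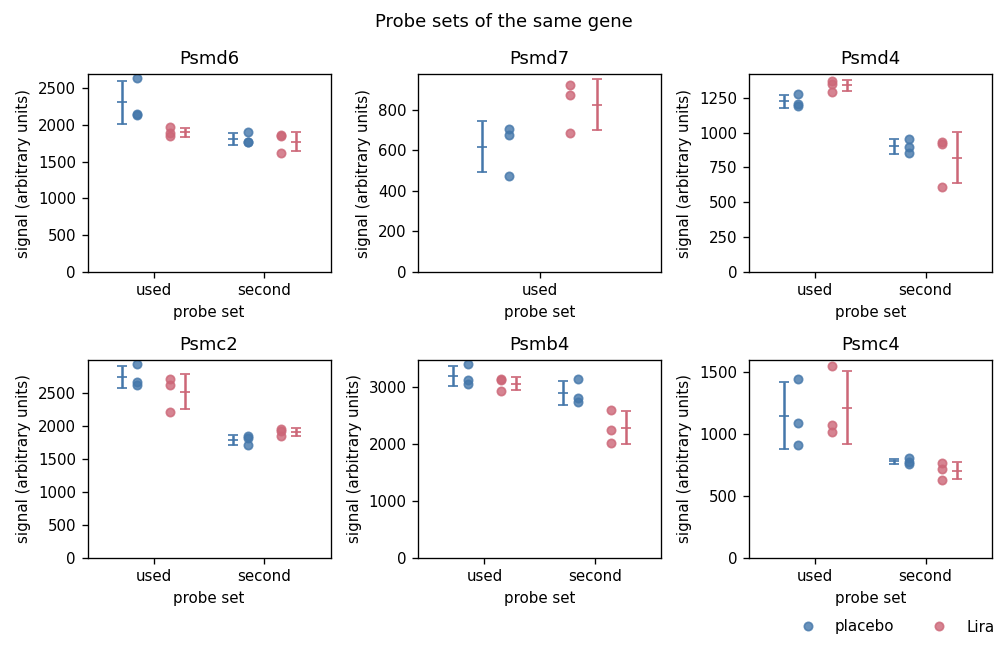
Signal (arbitrary units, axes from 0) on each array for the probe set used and, where bright enough, the second probe set of 6 genes, with placebo in blue and Lira in red; points are mice and bars show mean ± SD of 3. The 3 Lira arrays lie below placebo on the set used for Psmd6 but not on its second set, and the reverse holds for Psmb4.

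Genes that assemble, supply or control the proteasome were followed as a list of 37, of which none of those tested passed the adjusted threshold in limma. Of these 37, 28 could be tested, with 12 above and 16 below 0 and a median of -0.01. An unadjusted p under 0.05 in limma was seen for 1, Nfe2l2 (3.6%, all genes 6.02%). Groups did not overlap in 3 (10.7%, all genes 11.4%), namely Nfe2l2, Ubqln4 and Uba6, all lower with Lira. Nfe2l2, the antioxidant response factor, measured 1208, 1074 and 1153 with placebo and 932, 824 and 1032 with Lira, a log2 difference of -0.30 ± 0.10 (unadjusted p in limma 0.013, adjusted p = 0.67), and its groups did not overlap. Nfe2l1, the factor that raises proteasome genes when activity falls short, measured 1743, 1631 and 1469 with placebo and 1946, 1884 and 1742 with Lira (0.20 ± 0.09, adjusted p = 0.82), with groups that met at Lira 3 and placebo 1. Its values thus lay on the other side of 0 from those of Nfe2l2, and a test of that contrast was not run.

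Of 6 core assembly and inhibitor genes, among them Pomp and Psmg1, 5 were below 0, with a median of -0.13, and 0 had an unadjusted p under 0.05. Pomp, the chaperone that matures the core, measured 2403 ± 226 with placebo and 2351 ± 108 with Lira (SD, n = 3 per group), and Psmg1 559 ± 53.5 and 491 ± 14.5. The segregase Vcp, which extracts ubiquitinated proteins for the proteasome, measured 4391 ± 369 and 4464 ± 169. Usp14, a deubiquitinase that docks on the caps, measured 451 ± 76.1 and 516 ± 57.3 (0.20 ± 0.13, adjusted p = 0.87). The ubiquitin-activating enzyme Uba6 measured 166, 167 and 166 with placebo and 141, 140 and 129 with Lira, which is a difference of -0.26 ± 0.13 on the log2 scale (adjusted p = 0.84) with groups that did not overlap.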

How the data were processed

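The authors deposited 1 linear signal intensity for each of 45101 probe sets on each of 6 Affymetrix arrays, for which the submitters' processing notes name Expression Console. Its version, the summarisation and a genome build were not given in the sources used here. Every array had a trimmed mean of 150, as computed from the values, so only changes relative to other genes can be seen. Probe sets naming 1 gene (34945) were named by a platform table and RefSeq gene IDs, and the brightest by mean stood for its gene. Values were taken as log2(signal + 16), the 30% of genes with the lowest mean signal (under 23.7) were left out, and the groups were compared in limma 3.58.1 under R 4.3.3 (lmFit, then eBayes with a trend in the variance; two-sided; Benjamini-Hochberg over 12735 genes). Tested on 5 simulated sets of this comparison over 12735 genes, the fit recovered 65.7% of genes changed 2-fold, with 6.3% false calls. The simulated noise was independent for each gene and array, with variances drawn from the fit to all genes. The rate therefore does not describe smaller differences, or the members as a set. The labels do not say whether mice of a group shared cages or litters.

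Members, gene lists, markers and the rule for named genes were chosen with earlier results of these data known. Every member was described. Values on each array were given for Psmb5, Psmb6, Psmb7, Psmb9, Psmb10, Psme1, Psmd14, Psmd2 and Psmd4, and for the 6 with the smallest p in each direction. Of the other listed genes, those with an unadjusted p under 0.05 were named. Psmc4, Myl4, the second probe sets, Irf1, Nfe2l1, Pomp, Psmg1, Vcp, Usp14, Uba6, Ubqln4, Adgre1 and C1qa were added after their values were seen. The array values of Acta2 and the array pattern of the cardiomyocyte markers were also added then. Counts of the highest and lowest array were not among the planned results. Alternatives were quantile normalisation, median centring, pseudocounts of 1 and 64, no filter, a filter of 50%, averaging all probe sets of a gene, a robust prior or one without the trend, array weights, a replicate block and each array left out.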

Additional observations from a re-analysis of the deposited data

How the results depend on the processing

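No member passed an adjusted p of 0.05 in limma under any of the 11 alternatives or the 6 fits with an array left out. The 2 members at an unadjusted p under 0.05 became 1 with the mean of probe sets (Psmb4 alone) and 0 with no variance trend. They became 0 without placebo 3, 1 without Lira 1 or Lira 3 and 5 without Lira 2, a range of 0 to 5. With the replicate block there were 2, the same number; deviations of same-numbered arrays correlated at -0.03, 0.08 and -0.09, so the numbers gave no pairing. Members above 0 numbered 19 to 21, and 14 to 23 with an array left out. The cap median was 0.04 with the mean of probe sets, and -0.01 to 0.04 with an array left out. The count of members with groups apart was an alternative chosen after seeing the data. It was 3 with median centring, where 9.47% of all genes were apart, and 5 with quantile normalisation (all genes 12.1%). The mean of probe sets gave 8 of 40 (all genes 10.4%). With single arrays left out the count was 10 without placebo 1, 11 without placebo 2, 12 without placebo 3, 10 without Lira 2, 9 without Lira 3 and 6 without Lira 1. In those sets 20.0% to 22.7% of all genes were apart, beside 11.4% with all 6 arrays. Of 340 values of 20 named members, 7 changed sign. With the mean of probe sets these were Psmd2 (-0.28), Psmd7 (-0.04) and Psmd13 (-0.06). That mean gave equal weight to dim sets, among them those of Psmd13 with mean signals of 3.09 and 55.4. The Psmd13 set with a mean signal of 202 had the sign of the set used, at 0.08. With an array left out, values ran from -0.07 to 0.29 for Psmb7, -0.03 to 0.31 for Psmb9, -0.10 to 0.01 for Psme1 and -0.01 to 0.16 for Psmd2. The core minus cap shift kept its sign, at -0.13 to -0.03. No detection calls were used, so the dimmest members could not be told from background.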
